A study of Mus musculus with 11 samples.

Results

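Pou5f1, Sox2 and Nanog, the 3 genes that encode the core pluripotency factors OCT4, SOX2 and NANOG, were followed across 10 libraries of RNA from embryonic stem cells of the mouse. They were chosen by name, as 3 of the 55291 genes in the count table. OCT4 is a POU-domain protein, SOX2 an HMG-box protein and NANOG a homeodomain protein. The 3 factors bind many of the same enhancers in embryonic stem cells, among them enhancers of their own genes, and together keep the cells self-renewing. OCT4 and SOX2 bind side by side to a composite DNA motif. NANOG stabilises the network, and cells with low NANOG remain able to self-renew but enter differentiation more easily.

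The cells were of the E14 line, grown without feeders in serum medium with LIF, a GSK3 inhibitor (CHIR99021) and a MEK inhibitor. In 2 independently targeted lines, called 10E and 11D after the column names, the FACT subunit SPT16 is fused at its C terminus to a V5 tag and an auxin-inducible degron. FACT is a histone chaperone that takes nucleosomes apart and rebuilds them around transcribing and replicating polymerases. The tagged lines received 500 nM indole-3-acetic acid (IAA), the auxin that directs degron-tagged proteins to destruction where the plant receptor TIR1 is present, or an equal volume of its solvent ethanol (EtOH), for 24 hours. An untagged line received IAA alone, so its comparison with the tagged lines in EtOH changes line and agent together. The table holds 2 libraries of 10E in EtOH, 1 of 10E in IAA, 2 of 11D in EtOH, 2 of 11D in IAA and 3 of the untagged line in IAA. The series title asks whether FACT keeps pluripotency factors expressed.

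Total counts ranged from 3100127 to 13510163 per library. SPT16 protein was not measured here. The summed level of 10 embryonic stem cell markers, which include the 3 genes themselves, spanned 4790 to 5911 CPM with EtOH, 1916 to 2106 with IAA in tagged cells and 5144 to 5320 in untagged cells. CPM are counts scaled to library size and adjusted between libraries by TMM factors. Summed levels of 10 fibroblast markers were 6.85 to 13.0, 10.8 to 18.2 and 8.48 to 9.61 CPM in the same order, with Postn at 0 everywhere. Trophectoderm markers summed to 70.3 to 94.0, 94.3 to 134 and 73.2 to 90.7 CPM. Primitive endoderm markers summed to 405 to 553, 194 to 271 and 492 to 538. Of these Lama1 alone averaged 444 CPM in EtOH and 164 in tagged IAA, so the sum follows this gene more than the set. Neural markers summed to 136 to 168, 110 to 151 and 131 to 161 (Olig2 at 0), of which Ncam1 averaged 84.2 in EtOH and 29.1 in tagged IAA. Mesendoderm markers summed to 11.5 to 29.6, 13.3 to 39.9 and 17.4 to 22.4. In the comparison of IAA with EtOH described below, 1 of 5 tested fibroblast, 3 of 8 trophectoderm, 2 of 7 primitive endoderm, 3 of 7 neural and 4 of 6 mesendoderm markers rose, and 0, 2, 1, 3 and 1 fell, against 29.3% of all genes tested called higher and 28.1% called lower. Of the mesendoderm markers that rose, 3 averaged under 1 CPM in EtOH, as did 2 neural and 1 primitive endoderm marker, and such genes can pass the filter on low counts through their IAA level alone. Some of these marker calls depended on the processing. With library totals in place of TMM factors, Tubb3, Map2 and Tfap2c no longer passed as lower (edgeR FDR 0.1173, 0.1195 and 0.839). Pax6 did not pass as higher by DESeq2 (adjusted p 0.0642), nor T without a term for line (edgeR FDR 0.722). The part of the marker genes in the changes of the 3 genes was not tested.

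Pou5f1 lies on chromosome 17 (35506018 to 35510772, plus strand), Sox2 on chromosome 3 (34650405 to 34652461, plus strand) and Nanog on chromosome 6 (122707489 to 122714633, plus strand), in GENCODE annotation of GRCm38. Sox2 is a gene of 1 exon and lies inside the long noncoding gene Sox2ot on the same strand, with no shared exonic base. Exons of Pou5f1 overlap those of the antisense gene Gm19553 by 317 bases. Gm19553 held 1 to 8 counts per library, and the strand setting of the authors' counting is not given in the sources used here. The sequences before the RefSeq transcription starts are shown because all 3 genes are textbook targets of the factors they encode. They are from RefSeq on GRCm38.p6, plus strand, at chr17:35505782-35506017, chr3:34649745-34649994 and chr6:122707239-122707488. Capitals mark GC boxes (GGGCGG), the POU octamer core (ATGCAAA) and the SOX core (CATTGT), each searched on both strands. At Nanog the base between the octamer core and the SOX core is in capitals too.
Pou5f1 promoter: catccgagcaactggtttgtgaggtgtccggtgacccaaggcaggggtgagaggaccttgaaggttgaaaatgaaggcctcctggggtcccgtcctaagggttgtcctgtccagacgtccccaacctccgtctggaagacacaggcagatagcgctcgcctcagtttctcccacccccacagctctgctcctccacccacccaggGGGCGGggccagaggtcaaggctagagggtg
Sox2 promoter: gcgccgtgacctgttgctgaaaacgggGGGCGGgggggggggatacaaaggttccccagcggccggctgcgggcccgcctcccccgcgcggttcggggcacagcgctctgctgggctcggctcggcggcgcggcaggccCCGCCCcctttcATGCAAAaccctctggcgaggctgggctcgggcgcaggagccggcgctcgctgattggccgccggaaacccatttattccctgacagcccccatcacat
Nanog promoter: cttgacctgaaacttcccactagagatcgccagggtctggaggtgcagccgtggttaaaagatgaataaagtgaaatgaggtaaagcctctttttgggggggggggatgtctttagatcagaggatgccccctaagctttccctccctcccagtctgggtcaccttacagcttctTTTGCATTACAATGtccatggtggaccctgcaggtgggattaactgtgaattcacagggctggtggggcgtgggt

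In the 250 bases before the RefSeq start, the Nanog promoter held both cores on the minus strand, separated by 1 base, at 75 to 62 bases before the start. The search for this adjacent arrangement was set with such a site at Nanog already known from the field. Among 32851 RefSeq promoters of the same length it was found in 2, both of them starts of Nanog. The Sox2 promoter held an octamer core 99 to 93 bases before its RefSeq start (34649995) and 2 GC boxes. The GENCODE gene begins further on, at 34650405, so this window does not adjoin the GENCODE start. The window before the first RefSeq start of Pou5f1 (35506032) held 1 GC box and neither core; all 250 bases were searched, and 236 are printed because the GENCODE gene begins before that start. RefSeq also lists a Pou5f1 start at 35508807, inside the gene, and the window before it held a SOX core at 158 to 153 bases and no GC box or octamer core. Over all promoters the octamer core stood in 4.12%, the SOX core in 10.7% and the GC box in 32.7%. The motif TATAAA stood in 12.4% of all promoters and in none of the windows described. GC content in the 250 bases before the first start was 62.0% for Pou5f1, 72.0% for Sox2 and 52.0% for Nanog, against a median of 52.4% (quartiles 45.2% and 61.2%). These matches describe letters only, and distal enhancers lie outside the windows.

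All 3 transcripts fell in the tagged lines after IAA, by group means Nanog by the most and Pou5f1 by the least. Mean levels in IAA were 47.9% of those in EtOH for Pou5f1, 30.9% for Sox2 and 26.1% for Nanog. In none of the 3 did an IAA library reach the lowest EtOH library. That held for 24.8% of all genes tested in the direction of lower IAA values. In bulk RNA, fewer cells expressing a gene and less RNA per cell cannot be told apart.

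In line 10E, Pou5f1 stood at 806 and 936 CPM with EtOH and at 420 with IAA. In line 11D it stood at 739 and 728 CPM with EtOH and at 355 and 379 with IAA, and untagged cells gave 622, 689 and 707. The tagged IAA libraries formed a separate low group, and the highest of them was at 57.6% of the lowest EtOH library. From 802 ± 95.5 CPM (SD, n = 4) in EtOH to 384 ± 32.7 (n = 3) in IAA, the log2 fold change was -1.03 ± 0.09 (SE, edgeR FDR 1.99e-07).

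In line 10E, Sox2 stood at 221 and 452 CPM with EtOH and at 111 with IAA. In line 11D it was at 418 and 260 CPM with EtOH and at 121 and 80.5 with IAA, and untagged cells gave 328, 341 and 301. Its EtOH libraries were the most scattered of the 3 genes, with a coefficient of variation of 33.9% against 11.9% for Pou5f1 and 9.50% for Nanog. It averaged 338 ± 114 CPM with EtOH (SD, n = 4) and 104 ± 21.3 with IAA (n = 3), and its log2 fold change was -1.70 ± 0.22 (SE, edgeR FDR 6.05e-06).

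In line 10E, Nanog stood at 777 and 815 CPM with EtOH and at 185 with IAA. In line 11D it measured 668 and 690 CPM with EtOH and 196 and 197 with IAA, and untagged cells gave 942, 930 and 819. The 3 IAA libraries lay within 185 to 197 CPM although 2 lines are among them. The decrease from 738 ± 70.1 CPM (SD, n = 4) to 193 ± 6.58 (n = 3) gave a log2 fold change of -1.92 ± 0.10 (SE, edgeR FDR 1.03e-09).

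**Figure D1:**
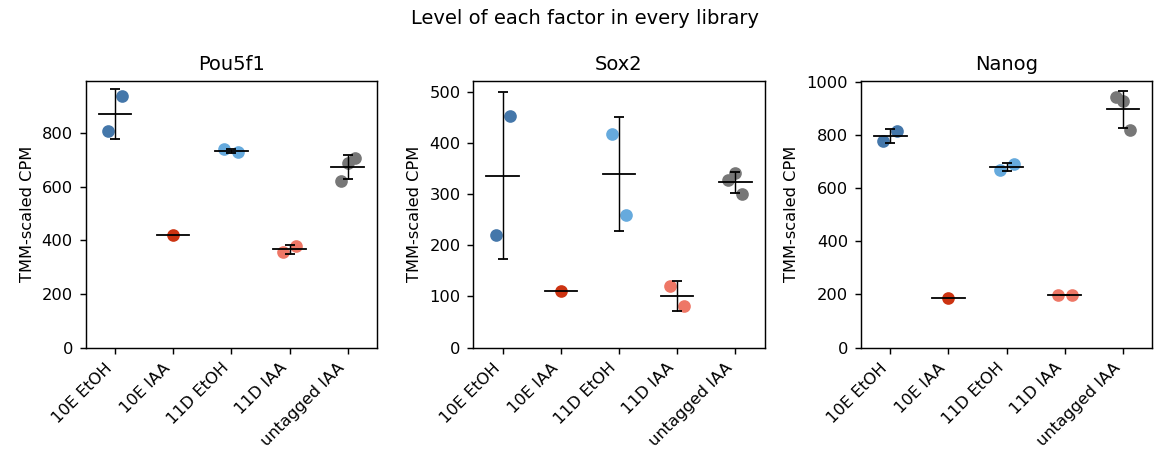
TMM-scaled CPM (vertical axis, from 0) of Pou5f1, Sox2 and Nanog in each of 10 libraries, by line and treatment (points); horizontal bars are means and error bars SD where a group has more than 1 library. The tagged IAA libraries sit at 355 to 420 CPM for Pou5f1, 80.5 to 121 for Sox2 and 185 to 197 for Nanog, below all other libraries of each gene.

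Within the tagged lines the scatter of Sox2 ran alongside that of the transcript CT010467.1. Its share of all counts in EtOH was 0.129% and 2.64% in replicates 1 and 2 of 10E, and 4.27% and 0.815% in replicates 1 and 2 of 11D, where Sox2 stood at 221, 452, 418 and 260 CPM. In tagged IAA it took 0.223%, 0.486% and 1.58%, where Sox2 stood at 80.5, 111 and 121 CPM. In untagged cells it took 0.131%, 0.349% and 0.327% in replicates 1, 2 and 3, where Sox2 stood at 328, 341 and 301 CPM. In each line and treatment with 2 libraries, the one richer in CT010467.1 had the higher Sox2 level, but the untagged libraries did not keep this order. The share of all genes that keep the same order was not computed, and so few pairs can share an order by chance. The part of CT010467.1 in the Sox2 result was not tested. Leaving out the EtOH libraries with the 2 largest shares, an alternative chosen after seeing the data, the Sox2 log2 fold change was -1.25 ± 0.15 (edgeR FDR 1.44e-05).

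Many genes fell in this comparison, so the 3 changes were read against the rest. Of 17904 genes tested, 28.1% were called lower and 29.3% higher at an FDR under 0.05. The median log2 fold change of all genes was 0.03. With library totals in place of TMM factors this median was 0.36, and Pou5f1, Sox2 and Nanog then stood at 60.0%, 39.0% and 32.6% of their EtOH means. Among the 2651 genes with a mean of at least 100 CPM in EtOH, 67.0% were called lower and the median log2 fold change was -0.47. In that set 379 genes (14.3%) had a lower fold change than Pou5f1, 55 (2.07%) a lower one than Sox2 and 27 (1.02%) a lower one than Nanog. In the authors' deposited table the log2 fold changes were -0.95 for Pou5f1, -1.66 for Sox2 and -1.86 for Nanog.

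**Figure D2:**
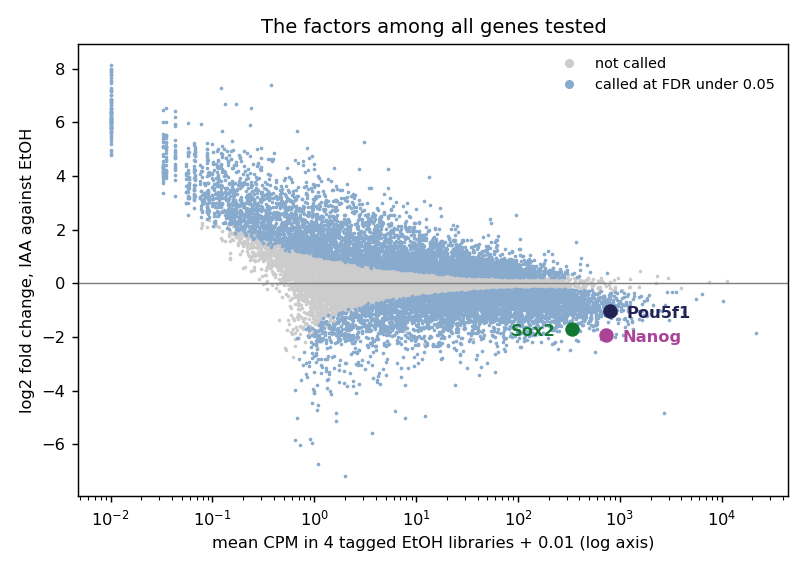
Log2 fold change of IAA against EtOH in the tagged lines (vertical axis) against mean CPM in EtOH plus 0.01 (horizontal log axis) for 17904 genes; blue points were called at an FDR under 0.05 and grey points were not. Pou5f1 (-1.03), Sox2 (-1.70) and Nanog (-1.92) lie among highly expressed genes, whose values are mostly below 0.

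Each tagged line showed the decrease by itself. In 10E, where 1 IAA library is assumed to vary like the other groups, the log2 fold change was -1.07 ± 0.15 for Pou5f1 (edgeR FDR 0.000147), -1.61 ± 0.37 for Sox2 (0.00467) and -2.12 ± 0.15 for Nanog (1.58e-06), with 18.3% of all genes called lower. In 11D it was -1.001 ± 0.12 (1.86e-05), -1.76 ± 0.29 (0.000289) and -1.79 ± 0.11 (2.38e-07), with 23.1% called lower. The Sox2 value in 10E rested partly on EtOH replicate 2: without it the log2 fold change was -0.98 (edgeR FDR 0.0159), and by DESeq2 with all libraries the adjusted p was 0.0687.

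The difference between the lines was tested as an interaction, 10E minus 11D. It was -0.06 ± 0.18 for Pou5f1, 0.15 ± 0.45 for Sox2 and -0.33 ± 0.17 for Nanog, with edgeR FDRs of 0.987, 0.987 and 0.938. No gene of 17904 was called (0%) by edgeR, although 872 had an unadjusted p under 0.05, and DESeq2 called 1. In EtOH, 10E minus 11D was 0.26 ± 0.12 for Pou5f1, 0.01 ± 0.28 for Sox2 and 0.24 ± 0.11 for Nanog (edgeR FDR 0.258, 0.998 and 0.254), while 3.23% of genes were called. None of the 3 genes passed either test.

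Against the untagged line in IAA, the tagged IAA libraries were again lower in all 3 genes without overlap. The share of all genes without overlap was not computed here. Levels were 57.2% of the untagged mean for Pou5f1, 32.2% for Sox2 and 21.5% for Nanog. Log2 fold changes were -0.78 ± 0.10 (edgeR FDR 1.07e-05), -1.62 ± 0.24 (3.81e-05) and -2.23 ± 0.10 (1.03e-09), and 27.8% of 17439 genes were called lower. This comparison shares its tagged IAA libraries with the one against EtOH.

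Tagged cells in EtOH differed less from untagged cells. Pou5f1 averaged 802 ± 95.5 CPM (SD, n = 4) against 673 ± 44.97 (n = 3), or 119%, Sox2 338 ± 114 against 324 ± 20.5, or 104%, and Nanog 738 ± 70.1 against 897 ± 68.0, or 82.3%. The Pou5f1 and Nanog groups did not overlap, although the highest tagged Nanog library was at 99.6% of the lowest untagged one, and the Sox2 groups did. For this comparison too, the share of all genes without overlap was not computed. Log2 fold changes were 0.25 ± 0.09, 0.06 ± 0.20 and -0.29 ± 0.08, with edgeR FDRs of 0.123, 0.897 and 0.0696, so none passed, and 3.57% of all genes were called. The Nanog value passed with library totals (FDR 0.0387) and by DESeq2 (adjusted p 0.0137), and the Pou5f1 value by DESeq2 (0.0478). Without the 2 EtOH libraries rich in CT010467.1 the Sox2 value turned to -0.43 (FDR 0.0826).

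**Figure D3:**
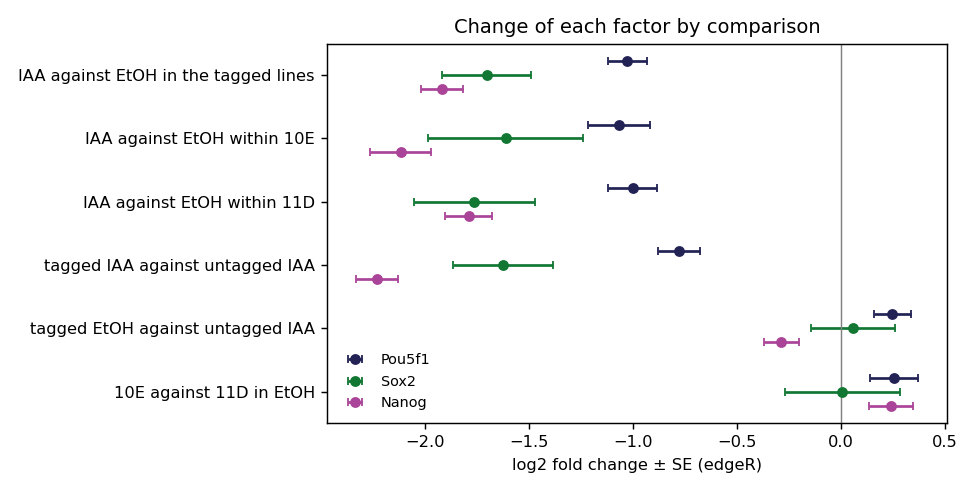
Log2 fold change (horizontal axis; points, with SE as bars) of Pou5f1, Sox2 and Nanog in 6 comparisons (vertical axis). The 4 comparisons of tagged IAA with EtOH or with untagged IAA lie between -2.23 and -0.78, and the 2 without tagged IAA lie between -0.29 and 0.26.

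Set in order of mean CPM, Pou5f1 ran from 10E EtOH (871) through 11D EtOH (733), untagged IAA (673) and 10E IAA (420) to 11D IAA (367), and neighbouring groups did not overlap. Sox2 was at 339, 336 and 324 CPM in 11D EtOH, 10E EtOH and untagged IAA, which overlapped, and at 111 and 101 in 10E and 11D IAA, which overlapped too. Nanog ran from untagged IAA (897) through 10E EtOH (796) and 11D EtOH (679) to 11D IAA (197) and 10E IAA (185), with no overlap between neighbouring groups. The share of all genes that separate in this way was not computed for these small groups, so the order describes these libraries only.

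To compare levels between genes, CPM were divided by transcript length in kilobases. With the longest annotated transcript, tagged EtOH cells held 589 ± 70.1 CPM per kilobase of Pou5f1, 334 ± 31.7 of Nanog and 164 ± 55.6 of Sox2 (SD, n = 4). In tagged IAA the values were 282 ± 24.0, 87.3 ± 2.98 and 50.7 ± 10.3 (n = 3). The lead of Pou5f1 over Nanog depended on the length: with all exons merged (2248 bases for Pou5f1 in place of 1362) it was 357 against 329 in EtOH, and in the untagged line Nanog was the higher, at 400.01 against 299. Sox2 was the lowest of the 3 in each group with either length.

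The unequal decreases were tested on ratios of counts within a library, which no scaling between libraries touches. Nanog to Pou5f1 was 0.965 and 0.871 (10E) and 0.905 and 0.947 (11D) with EtOH. With IAA it was 0.441 in 10E, 0.553 and 0.521 in 11D, and 1.52, 1.35 and 1.16 in untagged cells. The 3 conditions did not overlap, with untagged cells highest and tagged IAA cells lowest. The mean log2 ratio in tagged IAA minus that in tagged EtOH was -0.87. The two-sided exact permutation test gave p = 0.0571, the smallest that 3 against 4 libraries allow, or 0.171 adjusted over the 3 pairs of genes. Against all 7 other libraries the difference was -1.10 (exact permutation p = 0.0167, the smallest possible, adjusted 0.05). These 7 include the untagged line, whose ratios lay above those of tagged EtOH, so line and treatment are mixed in this difference.

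Sox2 to Pou5f1 ranged over 0.274 to 0.566 with EtOH, 0.213 to 0.342 with IAA in tagged lines and 0.426 to 0.528 in untagged cells. The EtOH and IAA groups overlapped, and the difference of mean log2 ratios was -0.59 (exact permutation p = 0.114, adjusted 0.171). Nanog to Sox2 was 1.60 to 3.52 in tagged EtOH and 1.62 to 2.45 in tagged IAA, a difference of -0.28 (exact permutation p = 0.4). With 3 against 4 libraries the smallest possible p of this test was 0.0571, so no pair could pass between tagged IAA and tagged EtOH. Unequal decreases were thus not detectable by this test for any pair, although the Nanog to Pou5f1 ratios of these groups did not overlap.

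**Figure D4:**
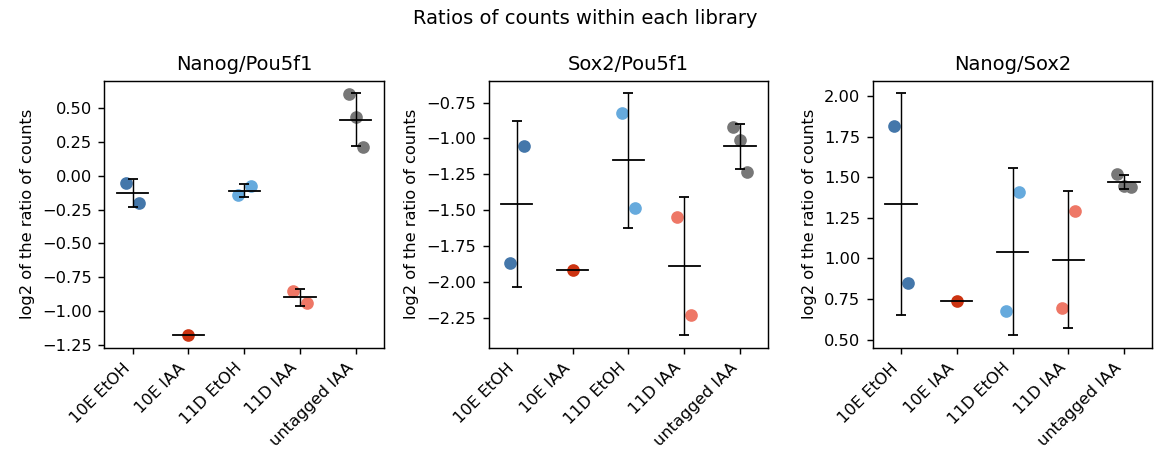
Log2 of the ratio of counts between 2 genes of the same library (vertical axes, which do not start at 0) for the 3 pairs, by line and treatment; points are libraries, horizontal bars means and error bars SD. Nanog to Pou5f1 separates tagged EtOH, tagged IAA and untagged IAA, while Nanog to Sox2 overlaps between tagged EtOH and tagged IAA.

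Genes that act on the 3 promoters or enhancers were read from a list of 19 activators. Of these, 16 fell, none rose and 3 (Sall4, Med12 and Stat3) did not pass, with a median log2 fold change of -0.89 against 0.03 for all genes, of which 28.1% were called lower. At 100 CPM or more in EtOH, 13 of 16 activators fell, against 67.0% of all genes at that level. Esrrb, an orphan nuclear receptor, fell from 1067 ± 139 CPM to 273 ± 22.7 (-1.94 ± 0.12). Tfcp2l1, a factor of the naive state, fell from 3013 ± 227 to 1142 ± 54.7 (-1.38 ± 0.11). Nr5a2, a nuclear receptor that binds the Pou5f1 promoter, fell from 142 ± 11.6 to 64.1 ± 8.94 (-1.20 ± 0.10). With library totals 1 activator was called higher.

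Among 12 repressors, 5 fell, 2 rose and 5 did not pass, with a median of -0.12, beside 28.1% lower and 29.3% higher among all genes. At 100 CPM or more, 2 of 4 repressors fell, against 67.0% of all genes at that level, and 4 genes are too few to set the shares apart. Both that rose averaged under 1 CPM in EtOH. The 2 that rose were the orphan nuclear receptors Nr2f2, from 0.971 ± 0.254 to 9.22 ± 2.88 CPM, and Nr2f1, from 0.162 ± 0.141 to 1.13 ± 0.0342. Nr6a1, a nuclear receptor that represses Pou5f1 during differentiation, fell from 89.5 ± 11.6 to 47.2 ± 3.21 CPM. Tcf7l1, a repressor acting in the Wnt pathway, fell from 95.9 ± 11.8 to 44.99 ± 8.56, and Trp53, which encodes p53, from 394 ± 46.3 to 235 ± 24.5. With library totals 5 rose and 3 fell.

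Of 26 genes for protein partners of the 3 factors, 20 fell, 1 rose and 5 did not pass, with a median of -0.67, beside 28.1% lower among all genes. At 100 CPM or more, 18 of 24 partners fell, a share near the 67.0% of all genes at that level, so the count does not set the partners apart. Ctbp2, a transcriptional corepressor, fell from 251 ± 32.3 to 71.0 ± 6.19 CPM (-1.78 ± 0.09), and Wdr5, a subunit of H3K4 methyltransferase complexes, from 414 ± 37.5 to 151 ± 11.4 (-1.43 ± 0.10). Mta2, of the NuRD complex, rose from 219 ± 28.8 to 253 ± 8.83 (0.23 ± 0.09, edgeR FDR 0.0436), a call lost on leaving out replicate 1 of 10E with EtOH or with IAA, or any library of 11D (edgeR FDR 0.0590 to 0.136).

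Of 23 genes that OCT4, SOX2 and NANOG activate, 19 fell, 2 rose and 2 did not pass, with a median of -1.11, beside 28.1% lower among all genes. The list shares Esrrb and Sall4 with both the activators and the partners, Klf2 with the activators and Rif1 with the partners. The counts of these lists are therefore not separate. At 100 CPM or more, 16 of 17 fell, against 67.0% of all genes at that level. Fgf4, a growth factor gene with a classical OCT4 and SOX2 enhancer, fell from 263 ± 20.3 to 59.9 ± 4.50 CPM (-2.17 ± 0.10). Jarid2, a cofactor of Polycomb repressive complex 2, fell from 433 ± 44.0 to 153 ± 11.8 (-1.54 ± 0.09). The 2 that rose were the Nodal inhibitors Lefty1, from 9.47 ± 2.94 to 35.3 ± 6.01 CPM (1.95 ± 0.20), and Lefty2, from 62.4 ± 23.8 to 74.7 ± 14.4 (0.38 ± 0.15, edgeR FDR 0.0430). The call of Lefty2 was lost on leaving out replicate 1 of 10E EtOH or of 11D IAA, or either library of 11D EtOH (edgeR FDR 0.108 to 0.206).

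Of 26 lineage genes that the factors repress, 15 passed the filter on low counts, so 11 were too low to test, Olig2 among them at 0 in every library. Of the 15, 6 rose, 2 fell and 7 did not pass, beside 29.3% higher and 28.1% lower among all genes. Of the 6 that rose, 3 averaged under 1 CPM in EtOH, and a gene near 0 there passes the filter more easily when it rises. Krt8, a keratin of simple epithelia, rose from 13.1 ± 3.49 to 24.2 ± 4.53 CPM, and Meis1, a homeobox gene, from 0.870 ± 0.387 to 3.14 ± 0.364. T, which encodes Brachyury, was called higher (1.24 ± 0.27) with the lines fitted as a term, while its group means, 7.76 ± 8.05 and 11.1 ± 12.3 CPM, overlapped widely; without the line term the value was 0.38 (FDR 0.722). Eomes, a T-box gene of trophoblast and mesendoderm, fell from 10.3 ± 1.49 to 3.94 ± 0.903. Tfap2c fell from 36.3 ± 10.0 to 29.9 ± 5.995 (-0.37 ± 0.14), and with library totals its change was -0.038 (FDR 0.839). Its call was also lost on leaving out replicate 1 of 10E EtOH, 10E IAA or 11D EtOH, or replicate 2 of 11D IAA (edgeR FDR 0.0539 to 0.187).

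The nearest tested genes on either side of each of the 3 were measured as well, beside 29.3% of all genes called higher and 28.1% called lower. Neighbours under 1 CPM in EtOH, such as Gm4482 (0.461), Gm3143 (0.660) and Gm6639 (0.293), can pass the filter on low counts through their IAA level alone. At Nanog, Gdf3, a TGF-beta family gene of the same pluripotency cluster, fell from 105 ± 9.99 to 36.9 ± 3.86 CPM (-1.55 ± 0.10), and Slc2a3, a glucose transporter gene, from 2014 ± 142 to 917 ± 64.6 (-1.15 ± 0.11). Dppa3, which lies between Gdf3 and Nanog, rose from 1.52 ± 0.796 to 7.39 ± 2.12 (2.10 ± 0.35), and Foxj2, a forkhead gene, from 13.6 ± 1.24 to 38.8 ± 3.01 (1.47 ± 0.13). The processed pseudogenes Gm10224 and Gm4482 rose too, by 1.28 ± 0.23 and 1.60 ± 0.61, the call of Gm4482 being lost on leaving out replicate 2 of 10E EtOH, 11D EtOH or 11D IAA (edgeR FDR 0.0622 to 0.0976).

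At Sox2, the host noncoding gene Sox2ot moved the other way. In 10E, Sox2ot measured 4.06 and 4.45 CPM with EtOH and 28.7 with IAA. In 11D it measured 11.5 and 8.42 CPM with EtOH and 28.2 and 35.4 with IAA, and untagged cells gave 7.64, 7.75 and 4.84. All 3 tagged IAA libraries were above all others. The share of all genes that separate upward in this way was not computed, while 29.3% of all genes tested were called higher against EtOH. The log2 fold change was 2.14 ± 0.20 against EtOH (edgeR FDR 3.02e-07) and 2.22 ± 0.21 against untagged IAA (5.33e-07). In EtOH Sox2ot was lower in 10E than in 11D (-1.15 ± 0.25, edgeR FDR 0.0237). Gm43668 fell (-1.61 ± 0.14), the noncoding genes Gm3143, Gm38509 and Gm6639 rose by 1.67 ± 0.48, 2.90 ± 0.33 and 2.84 ± 0.60, and Gm42692 did not pass (1.35 ± 0.59, edgeR FDR 0.0625). The call of Gm3143 was lost without the 10E IAA library (FDR 0.0505).

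At Pou5f1, no tested neighbour passed as lower. Tcf19, a gene on the other strand, rose from 11.8 ± 0.672 to 24.99 ± 1.56 CPM (1.07 ± 0.15, edgeR FDR 1.50e-05), with untagged cells at 9.14 ± 0.777. Psors1c2 rose from 1.16 ± 0.681 to 7.64 ± 3.08, and the histocompatibility genes H2-Q6 and H2-Q7 rose by 2.16 ± 0.77 and 2.41 ± 0.52 from levels under 1 CPM. These H2-Q genes are near-identical copies whose reads may be split between them, and the call of H2-Q6 was lost on leaving out replicate 2 of 10E EtOH, 11D EtOH or 11D IAA (edgeR FDR 0.0521 to 0.116). Cchcr1 (-0.28 ± 0.12) and H2-Q10 (1.27 ± 0.64) did not pass, and the sign of Cchcr1 turned with library totals (0.0536), while without the 10E IAA library Cchcr1 passed as lower (-0.41, FDR 0.0485).

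**Figure D5:**
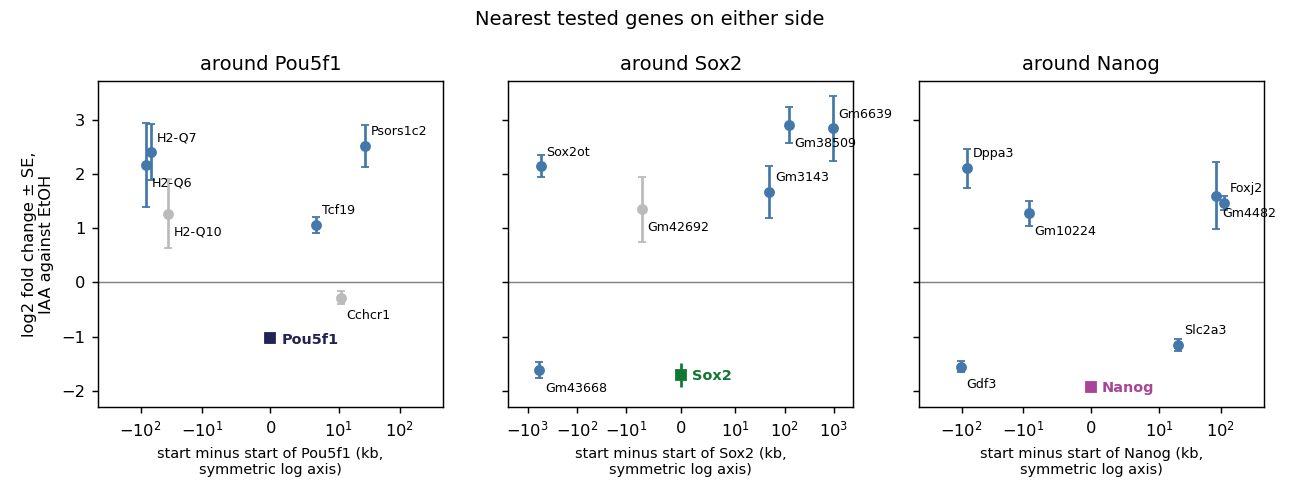
Log2 fold change of IAA against EtOH (vertical axis, SE as bars) against distance in kilobases between gene starts, taken as the lowest coordinate (horizontal axis, symmetric log), for the 3 nearest tested genes on either side of each factor gene; blue circles were called, grey ones were not, and squares are the factor genes. Gdf3, Slc2a3 and Gm43668 lie below 0 and were called, while Sox2ot (2.14), Tcf19 (1.07) and Foxj2 (1.47) lie above.

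The genes whose log2 CPM most closely followed each factor over the 10 libraries, out of 9209 genes with at least 10 CPM on average, differed between the 3. All libraries share the split between tagged IAA and the rest, which alone gives high coefficients. For Pou5f1 they were Atp5b, an ATP synthase subunit (Pearson r 0.992), Prmt1, an arginine methyltransferase (0.992), Wdr24 (0.992), the co-chaperone gene Fkbp4 (0.990) and the RNA helicase gene Ddx39b (0.989). For Sox2 they were Lrrn2 (0.967), Abr (0.966), Tlr2 (0.964), Trim2 (0.964) and Sqle, of cholesterol synthesis (0.962). For Nanog they were the H3K4 demethylase gene Kdm5b (0.997), the H3K36 methyltransferase gene Nsd1 (0.997), Atp1b1 (0.997), Eml4 (0.996) and Phf20 (0.995). The coefficients between the factors themselves were 0.894 for Pou5f1 and Sox2, 0.912 for Pou5f1 and Nanog and 0.914 for Sox2 and Nanog. They are below those of the named genes, which were picked as the highest. By closeness to Pou5f1, Nanog ranked 878 and Sox2 1087 among the 9209 genes. For Sox2, Nanog ranked 408 and Pou5f1 728, and for Nanog, Sox2 ranked 1369 and Pou5f1 1406. In the tagged libraries alone the 5 closest genes included 0 of those named for Pou5f1, 0 for Sox2 and 1 for Nanog.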

How the data were processed

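The authors deposited 1 table of whole-number read counts per gene, not normalized. Aligner and build (STAR, mm10), with deepTools, come from the submitters' processing notes, while versions, read counter, annotation and strand setting are not given in the sources here. Libraries came from a directional kit, per the labels. The authors' deposited comparison table served for description only; its columns are a base mean (a signal), a log2 fold change, a Wald statistic (a score) and p-values, per the file headers.

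Of 11 samples in the labels, 10 have a column. Which clone number of the labels 10E or 11D stands for is not stated. TIR1 columns were read as untagged cells, since only this code has an IAA replicate 3 and lacks EtOH. Separate cultures are not stated, so p-values reflect spread between samples that may be technical replicates. Pairs of replicates all differed beyond sampling noise (chi-square over degrees of freedom, 3.05 to 28.9).

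Counts were tested with edgeR 4.0.16 in R 4.3.3 (quasi-likelihood F test, TMM factors, filterByExpr, Benjamini-Hochberg FDR over all genes tested, called under 0.05). For IAA against EtOH, line was a term in a fit of the 7 tagged libraries. Line effects came from 1 coefficient per line and treatment, and all 10 libraries entered the comparisons with untagged cells, averaging the tagged lines. The SE was derived from the log2 fold change and F. Ratios were compared by exact permutation (scipy 1.17.1). Fits were run on simulated counts with the same variability for all genes and no line difference. That setting differs from these libraries, so it does not show how the fits perform at their spread. In it 46% of 1.5-fold, 86% of 2-fold and 100% of 3-fold and 4-fold changes were called in the comparison of IAA with EtOH. Alternatives were RLE factors, library totals, DESeq2 1.42.0, limma-voom (limma 3.58.1), no filter, no line term, a replicate block, 1 fit of all 10 libraries and leaving out each library.

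Named genes were the 3 genes, the 3 or fewer called genes of lowest FDR in each list and direction, the 3 nearest tested genes on either side in GENCODE vM21 and the 5 genes most correlated with each (log2 CPM, prior count 2), without predicted genes for the last. Genes that did not pass are named beside their list, and CT010467.1 was named after its values were seen. The 3 genes, the lists and the tests were chosen with earlier results of these data known. Lists hold regulators, partners, targets, relatives and cell type markers, and some genes are on several lists.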

Additional observations from a re-analysis of the deposited data

How the results depend on the processing

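In the comparison of IAA with EtOH, all 19 alternatives, 3 of which leave out an untagged library that this fit does not use, kept the direction and the call of the 3 genes, with log2 fold changes of -1.08 to -0.69 for Pou5f1, -1.88 to -1.25 for Sox2 and -1.97 to -1.59 for Nanog and FDRs of at most 7.23e-05, 0.00109 and 2.50e-06. Deviations of same-numbered libraries correlated over 9564 genes at -0.32 (10E EtOH and 11D EtOH), -0.30 (10E EtOH and 11D IAA) and 0.54 (11D EtOH and 11D IAA). Same numbers thus went together within 11D and not between the lines, and what the numbers mark is not stated. With a replicate block the values were -1.01 for Pou5f1, -1.73 for Sox2 and -1.90 for Nanog. Among other named genes the block let Cchcr1 (-0.31, FDR 0.0365) and H2-Q10 (1.68, FDR 0.0447) pass and lost Lefty2 (FDR 0.0515) and Gm4482 (0.0718). Sox2 within 10E was -1.57 by DESeq2 and did not pass, and ranged from -2.06 to -0.98 with 1 library left out. The interaction reversed for Pou5f1 with library totals (0.0045) and on leaving out the 2 EtOH libraries that hold most CT010467.1 (0.0797), and ranged with 1 library left out from -0.17 to 0.0501 for Pou5f1 and from -0.27 to 0.76 for Sox2. Sox2 in 10E against 11D in EtOH reversed with library totals (-0.0057) and without those 2 libraries (-0.24), and ranged from -0.57 to 0.43 with 1 left out. For tagged EtOH against untagged IAA, Sox2 reversed without those 2 libraries (-0.43) and ranged from -0.25 to 0.27 with 1 left out, Pou5f1 passed by DESeq2 (0.24), and Nanog passed with library totals (-0.32) and by DESeq2 (-0.29). Against all 7 other libraries, the untagged line among them, the log2 ratio of Nanog to Pou5f1 (-1.10, exact permutation p = 0.0167) and of Sox2 to Pou5f1 (-0.70, exact permutation p = 0.0333) passed before adjustment. The causes were not tested. With library totals 2851 genes were called lower in place of 5034, and 7713 higher in place of 5247. Without the 10E IAA library, the 10E effect and the interaction could not be estimated. Depth limits genes of a few counts, such as Gm19553, and not the 3 factors.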

Other observations

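Relatives of Pou5f1 and Sox2 were measured as families. Of 14 other POU-domain genes, 11 passed the filter on low counts; 7 of these rose, 2 fell and 2 did not pass, and Pou1f1 was at 0 in every library. Over all genes tested 29.3% were called higher and 28.1% lower. Of the 7 POU genes that rose, 3 averaged under 1 CPM in EtOH, and such genes can pass the filter through their IAA level alone, so the count is not read as a change of the family. Pou2f1, which encodes the broadly expressed OCT1, fell from 314 ± 19.8 CPM (SD, n = 4) to 118 ± 4.67 (n = 3), and Pou2f3 from 27.3 ± 10.1 to 5.24 ± 4.02. Pou4f1, a neuronal factor gene, rose from 7.72 ± 2.14 to 19.0 ± 0.922 CPM, Pou3f1, which encodes OCT6, from 1.06 ± 0.474 to 4.74 ± 2.74, and Pou4f3 from 0.111 ± 0.147 to 10.6 ± 4.63, with no count in the untagged line. The summed level of the POU family without Pou5f1 was 357 to 390.1 CPM in tagged EtOH and 188 to 215 in tagged IAA libraries.

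Of 18 other SOX genes, 11 were tested. Among these, 6 rose, 2 fell and 3 did not pass, beside 29.3% higher and 28.1% lower among all genes. Here too 3 of those that rose averaged under 1 CPM in EtOH, and the same limit holds. Sox11 rose from 4.39 ± 2.72 to 19.2 ± 10.4 CPM, Sox3, of the same SOXB1 group as Sox2, from 0.592 ± 0.226 to 4.06 ± 2.76, and Sox8 from 0.560 ± 0.437 to 2.43 ± 1.78. Sox12 fell from 65.8 ± 4.53 to 46.6 ± 7.32 CPM and Sox13 from 35.3 ± 7.58 to 24.6 ± 3.82, and with library totals neither passed (log2 fold change -0.18 and -0.21). The call of Sox13 was also lost on leaving out 11D EtOH replicate 1 or 11D IAA replicate 2 (edgeR FDR 0.0508 and 0.115), and without the 10E IAA library 3 SOX genes were called higher.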
